A study of Mus musculus with 7 samples.

Results

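A set of 9 forkhead genes known from ectoderm and neural tissue (Foxd1, Foxd2, Foxd3, Foxd4, Foxe1, Foxe3, Foxi2, Foxj1 and Foxq1) were examined for H3K27me3, trimethylation of lysine 27 on histone H3. They are 9 of the 21631 protein-coding genes annotated on the mouse autosomes and the X chromosome. They were chosen by name, with earlier results of these data known. A gene counted as marked when a called peak met its body or the 10 kb on either side of it. Chromatin was immunoprecipitated with an H3K27me3 antibody from the epidermal progenitors of back skin at postnatal day 0, sorted as EpCAM-positive, Sca1-positive and high in α6-integrin. The control genotype was set beside Ring1a/b 2KO cells, which lack both catalytic subunits of Polycomb repressive complex 1. Each genotype had 2 labelled libraries and 1 list of called peaks, so no replicate spread and no test between genotypes could be had. The labels do not name a Cre driver for the deletion, and they do not say whether control animals carry any of the alleles. Titles of the 2KO libraries read H3K27me1, whereas the antibody field reads H3K27me3, and the list was taken as H3K27me3.

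Forkhead proteins are transcription factors that bind DNA through a winged-helix domain. Members of the Foxd, Foxe and Foxq classes act in neural crest, neural plate, lens, thyroid and hair follicle, and Foxj1 drives the formation of motile cilia. Genes of this kind are often held silent by Polycomb proteins in cells of other lineages. Polycomb repressive complex 2 writes H3K27me3, and the Ring1 proteins of complex 1 ubiquitinate histone H2A, a mark that complex 2 can read in turn.

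The lists held 3631 control and 2340 2KO peaks, covering 24.8 and 16.4 Mb. They carry positions only, so depth and peak height are unknown, and a stretch with no called peak may still carry some of the mark. Of 10 marker genes of basal keratinocytes, 9 had no peak within 10 kb in either list. The share with a control peak (10.0%) was near the 14.9% over all protein-coding genes. Krt15 had a control peak nearby with 0 bases on the gene. Of marker genes of other cells that a sort could hold, control peaks met 5 of 6 for Merkel cells, 5 of 8 for dermal fibroblasts, 3 of 8 for melanocytes, 2 of 5 for endothelium and 2 of 5 for immune cells. In the 2KO list these counts were 4, 4, 2, 2 and 3, and over all protein-coding genes 11.2% had a 2KO peak. Whether other cells contributed to the peaks at the forkhead genes was not tested.

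All 9 forkhead genes, chosen with earlier results of these data known, were marked in both lists. Over all protein-coding genes the same rule called 14.9% in the control list, 11.2% in the 2KO list and 8.9% in both, and of 3219 genes called in the control list 59.8% were called in the 2KO list. The 9 genes lay on 8 control peaks, because Foxd2 and Foxe3 are neighbours under 1 domain, and on 12 distinct 2KO peaks. No other protein-coding gene body met any of these 8 control peaks. Together the 8 control peaks measured 151 kb, of which 126 kb (83.4%) lay under 2KO peaks. Over the gene bodies the called bases were the same in both lists at Foxd3, Foxd4, Foxe3 and Foxq1, fewer in the 2KO list at Foxd1, Foxd2, Foxe1 and Foxj1, and more at Foxi2. At Foxd1, Foxd2 and Foxe1 the 2KO peaks left an interval over the gene inside an unbroken control peak.

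Promoter sequences are shown for 4 genes, with capitals for bases that no 2KO peak covered. Foxd1 and Foxd2 are shown because their start fell between 2KO peaks, Foxd3 because its domain was called almost alike in both lists, and Foxi2 because it had the fewest CpG dinucleotides. All bases shown lay under a control peak. Each runs from 250 bases before to 50 after the RefSeq start (build GRCm38.p6, the assembly named mm10), at chr13:98353995-98354294 on the plus strand for Foxd1, chr4:114908849-114909148 on the minus strand for Foxd2, chr4:99656049-99656348 on the plus strand for Foxd3 and chr7:135410117-135410416 on the plus strand for Foxi2.
Foxd1: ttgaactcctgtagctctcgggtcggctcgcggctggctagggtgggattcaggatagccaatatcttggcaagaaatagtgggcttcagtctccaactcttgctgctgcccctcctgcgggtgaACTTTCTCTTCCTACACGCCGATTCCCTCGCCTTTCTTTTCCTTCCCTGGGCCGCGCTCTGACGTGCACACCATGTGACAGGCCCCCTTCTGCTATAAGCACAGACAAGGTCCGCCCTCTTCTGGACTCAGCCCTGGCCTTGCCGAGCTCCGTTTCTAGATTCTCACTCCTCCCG
Foxd2: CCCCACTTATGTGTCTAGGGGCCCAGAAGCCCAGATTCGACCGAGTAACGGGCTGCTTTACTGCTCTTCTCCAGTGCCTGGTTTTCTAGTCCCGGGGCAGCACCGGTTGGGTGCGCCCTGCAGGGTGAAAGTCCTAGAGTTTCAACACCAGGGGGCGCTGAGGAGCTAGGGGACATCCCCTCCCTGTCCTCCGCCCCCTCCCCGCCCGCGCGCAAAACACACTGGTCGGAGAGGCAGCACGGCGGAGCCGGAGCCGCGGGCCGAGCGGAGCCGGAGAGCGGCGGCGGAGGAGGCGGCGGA
Foxd3: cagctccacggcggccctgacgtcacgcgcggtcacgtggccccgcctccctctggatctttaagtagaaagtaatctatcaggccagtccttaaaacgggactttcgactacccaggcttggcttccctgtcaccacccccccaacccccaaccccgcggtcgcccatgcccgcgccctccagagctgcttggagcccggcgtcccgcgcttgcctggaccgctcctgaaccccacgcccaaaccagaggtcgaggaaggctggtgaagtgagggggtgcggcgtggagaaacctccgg
Foxi2: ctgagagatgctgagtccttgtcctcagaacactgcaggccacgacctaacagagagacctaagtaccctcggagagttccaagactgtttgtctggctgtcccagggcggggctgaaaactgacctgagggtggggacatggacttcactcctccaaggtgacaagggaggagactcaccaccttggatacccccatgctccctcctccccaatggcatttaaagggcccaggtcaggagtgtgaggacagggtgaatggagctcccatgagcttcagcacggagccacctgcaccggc

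A 2KO peak covered the first 125 of the 300 bases at Foxd1 and left 175 uncovered. At Foxd2 all 300 bases were uncovered, and at Foxd3 and Foxi2 all 300 were covered. RefSeq promoter windows were matched for 6 of the 9 genes, and those of Foxe1, Foxj1 and Foxq1 are not shown. The number of CpG dinucleotides in the window was 15 at Foxd1, 26 at Foxd2, 25 at Foxd3, 12 at Foxd4, 10 at Foxe3 and 5 at Foxi2. Over 17274 protein-coding genes with such a window the median was 14 (quartiles 4 and 24), and over the 1304 with a start under a control peak it was 19 (quartiles 11 and 29). The uncovered starts were those of Foxd1 (15) and Foxd2 (26), and the covered ones ran from 5 at Foxi2 to 25 at Foxd3. Whether CpG count goes with coverage was not tested. The ratio of observed to expected CpG was 0.624 at Foxd1, 0.758 at Foxd2, 0.793 at Foxd3, 0.667 at Foxd4, 0.345 at Foxe3 and 0.198 at Foxi2, beside a median of 0.679 over starts under a control peak. GC content ran from 49.0% at Foxd4 to 67.7% at Foxd2, beside a median of 63.0% over those starts.

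A set of 4 short motifs were searched on both strands of the 6 windows. The CCAAT box occurred in 3 of them (Foxd1, Foxd4 and Foxi2), and in 34.0% of windows with a start under a control peak. The GC box GGGCGG occurred in 3 (Foxd1, Foxd2 and Foxi2), and in 61.9% of those windows. The TATA box TATAAA and the forkhead core TGTTTAC occurred in 0 of 6, and in 8.9% and 1.92% of windows with a start under a control peak.

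**Figure D1:**
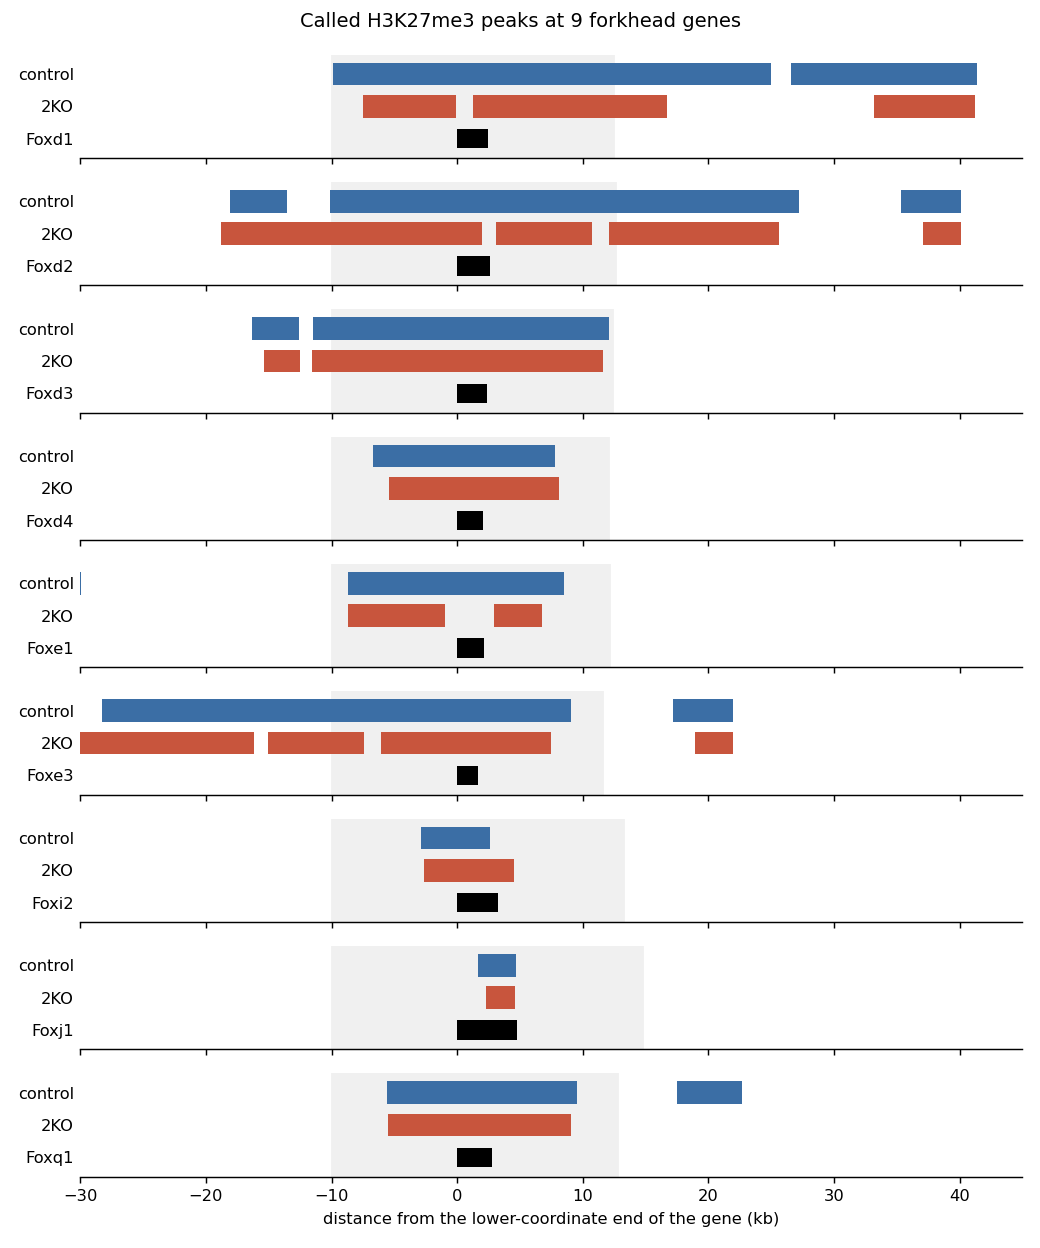
Called H3K27me3 peaks at each gene, drawn to scale as distance in kb from the lower-coordinate end of the gene; blue bars are control peaks, red bars 2KO peaks, black bars the gene body, and grey the gene with 10 kb on each side. The red bars break over Foxd1, Foxd2 and Foxe1 and run without a break over Foxd3, Foxd4, Foxe3, Foxi2 and Foxq1, while the blue bars do not break at any of the 9 genes.

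The Foxd genes were described first, as the largest class among the 9. Foxd3, a specifier of neural crest and of the pluripotent epiblast (chromosome 4, 99656299 to 99658671), lay under a control peak from 99644789 to 99668365 (23.6 kb). The 2KO peak ran from 99644784 to 99667941 (23.2 kb) and covered 98.2% of it. The left edges of these peaks lay 5 bp apart and the right edges 424 bp, and the gene body was wholly covered in both lists. Foxd3 had the closest match between lists among the 8 domains, by share of the control peak covered.

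Foxd4, a gene of the early neural plate (chromosome 19, 24898943 to 24901016), had a control peak of 14.5 kb from 24892225 to 24906726. Its 2KO peak of 13.5 kb, from 24893524 to 24907070, covered 91.0% of the control peak. The 2KO peak started 1299 bp further in on the left and ended 344 bp further out on the right. Over all edges of control peaks that met a 2KO peak, the median distance was 860 bp (quartiles 267 and 1889). The whole gene was covered in both lists.

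Foxd1, a factor of the retina, the forebrain and the stroma of the kidney (chromosome 13, 98354245 to 98356705), had a control peak of 34.9 kb from 98344350 to 98379227. The 2KO list held 2 peaks there, of 7.37 kb (98346755 to 98354119) and 15.5 kb (98355508 to 98370978), which covered 65.5% of it. Both outer edges lay inside the control peak, by 2405 bp on the left and 8249 bp on the right. Between the 2KO peaks lay 1388 bp (98354120 to 98355507) with no call. This interval began 125 bp before the start of Foxd1 and took in the first 1263 bp of the gene, so 48.7% of the gene body stayed under a 2KO peak.

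Foxd2, expressed in mesenchyme of the face and kidney (chromosome 4, 114906280 to 114908898), and Foxe3, a gene of the lens (114924443 to 114926067), shared a control peak of 37.4 kb from 114896139 to 114933503. The 2KO list held 3 peaks on it, of 20.8 kb (114887494 to 114908257), 7.61 kb (114909385 to 114916998) and 13.6 kb (114918382 to 114931933), which together covered 89.1% of it. The first 2KO peak began 8645 bp to the left of the control peak and took in a separate control peak of 4.56 kb (114888191 to 114892754). The 2KO peak ran without a break across the stretch that parted these control peaks, so the lists were broken at different places along this locus.

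An interval of 1127 bp (114908258 to 114909384) separated the first 2KO peaks of this domain. It held the annotated start of Foxd2, which is transcribed from the minus strand, with 641 bp of the gene and 486 bp before it, and 75.5% of the gene body stayed covered. It also held the annotated lower end of Foxd2os, a long noncoding RNA gene (114909257 to 114921118). The second interval of 1383 bp (114916999 to 114918381) met no protein-coding gene and lay inside Foxd2os. Foxe3 had its whole body and its annotated start under the third 2KO peak. The neighbours under 1 control domain therefore differed in whether the start was covered in the 2KO list.

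Foxe1, a factor of the thyroid and palate that also acts in hair follicles (chromosome 4, 46343644 to 46345774), had a control peak of 17.2 kb from 46334920 to 46352150. In the 2KO list a peak of 7.65 kb (46334990 to 46342641) and one of 3.82 kb (46346604 to 46350424) covered 66.6% of it. The left outer edges lay 70 bp apart and the right ones 1726 bp, with the 2KO edge further in on both sides. The interval between them, 3962 bp from 46342642 to 46346603, contained the entire gene with 1002 bp below and 829 bp above it. Foxe1 was the only one of the 9 genes with 0% of its body under a 2KO peak, and it counted as marked in the 2KO list through its flanks alone.

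Foxq1, which is mutated in satin mice and acts in the hair shaft (chromosome 13, 31558170 to 31560976), had a control peak of 15.1 kb from 31552612 to 31567737. The 2KO peak of 14.6 kb, from 31552660 to 31567259, covered 96.5% of it and the whole gene. Its edges lay 48 bp and 478 bp inside those of the control peak. Both genes of this group with a known part in hair, Foxe1 and Foxq1, thus had control domains of similar width, and only the one at Foxe1 was broken over the gene in the 2KO list.

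Foxi2, a Foxi-class gene of head ectoderm (chromosome 7, 135410367 to 135413622), had narrow peaks. The control peak measured 5.5 kb (135407478 to 135412980) and the 2KO peak 7.11 kb (135407761 to 135414872), which covered 94.9% of it and reached 1892 bp further at the 3' side of the gene. The gene body was under a peak to 80.3% for control and 100% for 2KO calls. Foxi2 was the only one of the 9 genes with more called bases in the 2KO list within 10 kb of the gene.

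Foxj1, the regulator of motile cilia (chromosome 11, 116330704 to 116335499), had the shortest calls. The control peak of 3.05 kb (116332326 to 116335378) and the 2KO peak of 2.29 kb (116333001 to 116335295) both lay wholly inside the gene and met neither of its ends. They covered 63.7% and 47.9% of the gene body, and 75.2% of the control peak lay under the 2KO peak.

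In windows of gene body and 10 kb on either side, the called length at Foxd1 was 22.4 kb for control and 18.6 kb for 2KO peaks. It was 22.6 and 20.1 kb at Foxd2, 22.1 and 21.6 kb at Foxd3, and 14.5 and 13.5 kb at Foxd4. The windows of Foxd1, Foxd2 and Foxd3 were filled to 98.6% or more by control peaks, so a wider domain could not add to them. Foxe1 had 17.2 and 11.5 kb, Foxe3 19.1 and 16.1 kb, and Foxq1 15.1 and 14.6 kb. Foxi2 had 5.5 and 7.11 kb and Foxj1 3.05 and 2.29 kb. The median was 17.2 kb for control and 14.6 kb for 2KO peaks, beside 5.21 kb over 3219 called genes and 5.62 kb over 2417 called genes of the same lists.

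The called length in the window was smaller in the 2KO list at 8 of the 9 genes, of which Foxd2 and Foxe3 share 1 control peak. Among 1925 genes called in both lists it was smaller in the 2KO list at 44.1%. These shares are not matched for width, since the median control length was 17.2 kb for the 9 and 5.21 kb over genes called in the control list. Windows nearly full under control peaks left little room for a longer 2KO call. The 8645 bp of 2KO call beyond the control peak at Foxd2 lay outside its window. The ratio of 2KO to control length ran from 0.666 at Foxe1 to 1.29 at Foxi2, with a median of 0.889, beside 1.05 (quartiles 0.769 and 1.39) over the genes called in both lists. The genes with narrow control peaks lay on opposite sides of 1, at 1.29 for Foxi2 and 0.752 for Foxj1. No statement about how far these ratios exceed the error of peak calling can be made from 1 list per genotype.

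**Figure D2:**
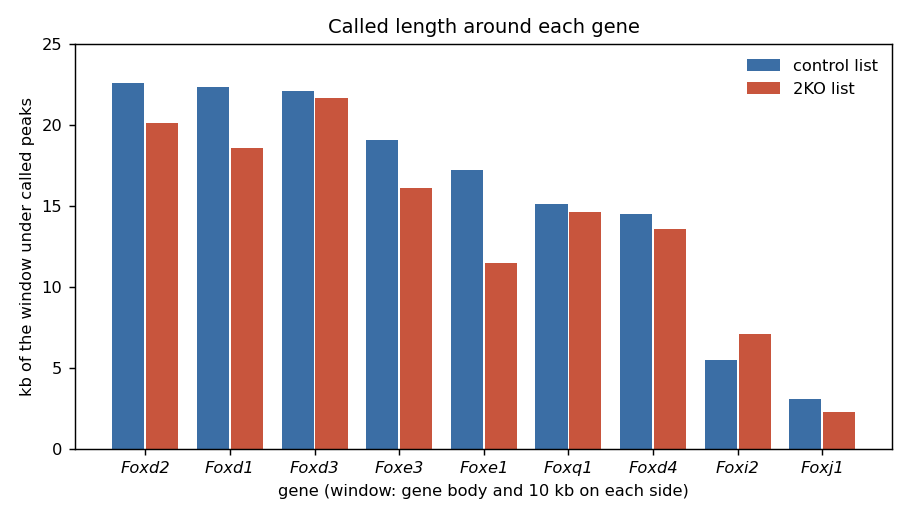
Called length (kb, linear axis from 0) in the window of gene body and 10 kb on each side for the 9 genes, in the control list (blue) and the 2KO list (red), with 1 list per genotype and no error bars. The red bar is lower at 8 genes and higher at Foxi2, and the widest difference is at Foxe1, with 17.2 kb against 11.5 kb.

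The control domains of these genes were wide for the list. Of the 8 control peaks, 6 measured 10 kb or more, compared with 15.5% of all control peaks. Since wide peaks meet any second list more easily, the share covered was set beside all control peaks of 10 kb or more. These were not matched in width to the 6 domains, which measured 14.5 to 37.4 kb. Of 562 control peaks of 10 kb or more, the median was covered to 58.7% (quartiles 0 and 93.3%), and of the 388 of these that met a 2KO peak, to 82.8% (quartiles 53.9 and 97.1%). The 6 wide forkhead domains were covered to 65.5% at Foxd1, 66.6% at Foxe1, 89.1% at Foxd2 and Foxe3, 91.0% at Foxd4, 96.5% at Foxq1 and 98.2% at Foxd3. All 6 lay above the median of wide control peaks, which includes peaks that met no 2KO peak. Foxd1 and Foxe1 lay below the median of those that met a 2KO peak.

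**Figure D3:**
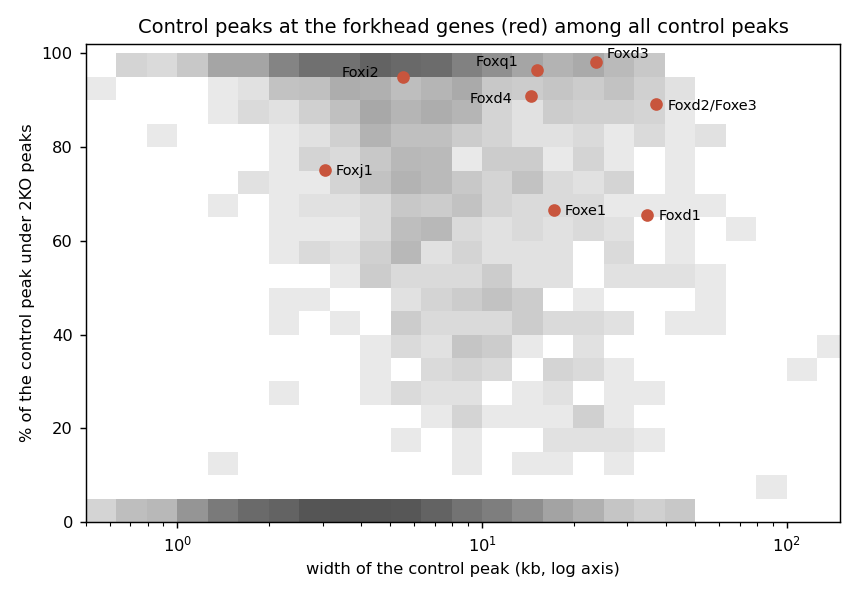
Share of each control peak that lay under 2KO peaks (%, linear axis) against the width of the control peak (kb, log axis); grey cells count all 3631 control peaks, darker for more peaks, and red points are the 8 control peaks of the forkhead genes. The red points lie between 65.5% at Foxd1 and 98.2% at Foxd3, away from the dark band at 0%.

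Edges were called in nearly the same place at several domains. Of the 16 outer edges of the 8 control peaks, 4 lay within 100 bp of the outermost 2KO edge, at Foxd3, Foxe1, Foxq1 and Foxj1. Over the 3442 edges of control peaks that met a 2KO peak, 12.5% did, and the median distance was 860 bp. At Foxe1 a near-identical left edge (70 bp) went together with an uncalled gene body.

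The breaks over genes were compared with those elsewhere, a readout chosen after the lists had been seen. Of the 8 control peaks, 3 were met by more than 1 2KO peak, and these left 4 intervals with no call, of which 3 reached into a forkhead gene. All 3 were among the 6 control peaks of 10 kb or more. Among all control peaks of that size that met a 2KO peak, 22.2% were met by 2 or more. How often the intervals between 2KO peaks reach into a gene elsewhere was not counted, so 3 of 4 intervals has no background. Of all protein-coding genes 1.4% lay wholly under control peaks, and so did 7 of the 9. Gene length was not matched here, and a short body is more easily covered whole. The bodies of the 9 genes measured 1625 bp (Foxe3) to 4796 bp (Foxj1). Of these 7 genes, 4 (Foxd3, Foxd4, Foxe3 and Foxq1) were wholly covered in the 2KO list, 2 (Foxd1 and Foxd2) in part, and 1 (Foxe1) not at all. Over the 303 protein-coding genes wholly under control peaks these shares were 50.5%, 25.1% and 24.4%. The 303 include genes with no 2KO peak within 10 kb, such as Foxc1 and Foxb1, whereas all 7 had one, so the sets are unlike.

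Annotated starts lay under a control peak at all 6 genes with a known start, and 4 of these starts lay under a 2KO peak. Over 17274 protein-coding genes with a known start, 7.55% of starts lay under a control peak, and 51.4% of those under a 2KO peak. Those of Foxd1 and Foxd2 fell between 2KO peaks on an unbroken control peak. They were 2 of the 5 starts in this set whose control peak measured 10 kb or more and met a 2KO peak. Over all protein-coding genes, 39 of 808 starts whose control peak met a 2KO peak fell between 2KO peaks in this way (4.83%, 95% Wilson interval 3.55 to 6.53), and 15.3% of 255 such starts under control peaks of 10 kb or more. In the opposite direction, 1 of 690 starts under a 2KO peak that met a control peak fell between control peaks (0.145%, 0.0256 to 0.816). These intervals cover counting error only, and genes on 1 peak are not independent. The directions are not matched for peak width, since the widest control peak measured 131323 bp and the widest 2KO peak 52690 bp. Gaps of up to 3 kb made up 7.78% of gaps between neighbouring control peaks and 6.38% of those between 2KO peaks. When 2KO peaks up to 3 kb apart were joined, a setting chosen after the lists had been seen, the starts of Foxd1 and Foxd2 counted as covered and 100% of both gene bodies was under a 2KO peak, whereas Foxe1 stayed at 0%. The same setting took the count over all protein-coding genes from 39 to 15 of 808.

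**Figure D4:**
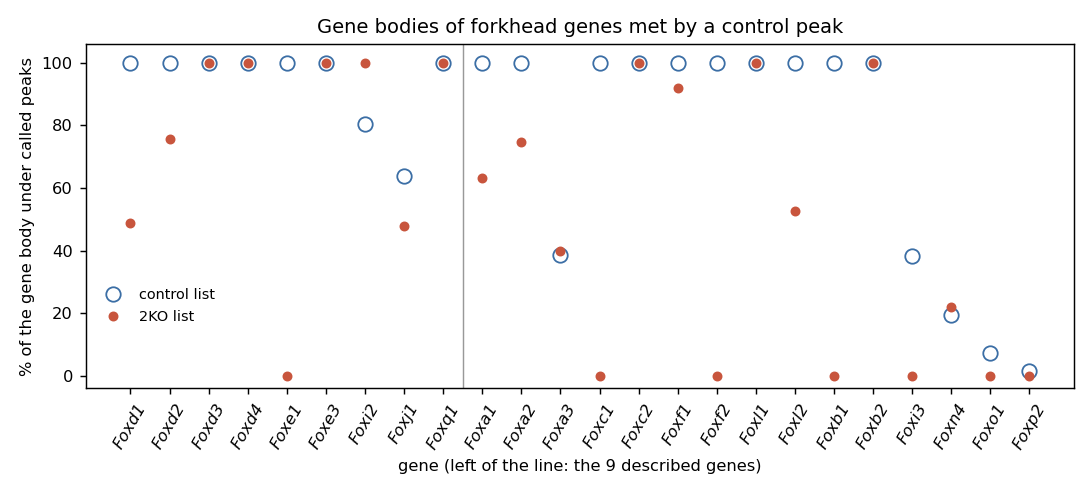
Share of the gene body under called peaks (%) for forkhead genes whose body met a control peak, in the control list (open blue) and the 2KO list (filled red); the vertical line separates the 9 described genes from other forkhead genes. Foxd1 (48.7%), Foxd2 (75.5%) and Foxe1 (0%) have full control and lower 2KO values. So do other forkhead genes, at Foxa1 (63.1%), Foxa2 (74.6%), Foxf1 (91.8%), Foxl2 (52.7%), and Foxc1, Foxf2 and Foxb1 (0%). Full values in both lists are kept by 2 of 8 endoderm and mesoderm genes and 1 of 2 other ectodermal, neural and thymic genes with full control values. The 2KO value is the higher one at Foxi2, Foxa3 and Foxn4.

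Other forkhead genes were counted for comparison, in groups made with earlier results of these data known. Of 11 genes of endoderm and mesoderm, 9 were marked in both lists, 1 in the control list only and 1 in neither. Foxa1 and Foxa2, pioneer factors of endoderm, had 26.0 and 24.1 kb of their windows under control peaks and 23.2 and 23.1 kb under 2KO peaks. Foxf1 and Foxl2, of visceral mesoderm and ovary, had 20.8 and 20.1 kb under control and 20.4 and 15.7 kb under 2KO peaks. Foxc1, of mesoderm and the eye, had 12.2 kb in the control list and 0 kb in the 2KO list. The median ratio of 2KO to control length over the 9 genes of this group in both lists was 0.957. It was 0.889 for the 9 genes described first, and this difference has no test.

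Of 6 other ectodermal, neural and thymic forkhead genes, 3 were marked in both lists, 1 in the control list only and 2 in neither. Foxb2 had 13.7 and 5.83 kb, Foxn4 10.2 and 11.4 kb, and Foxi3 4.62 and 2.54 kb in the control and 2KO list. Foxb1 had 19.7 kb under control and 0 kb under 2KO peaks. Foxi3 and Foxi2, of the same class, both had narrow control peaks, and 100% of the body of Foxi2 but 0% of that of Foxi3 lay under a 2KO peak. Of 17 widely expressed and other forkhead genes, 15 were marked in neither list, Foxp2 in both and Foxo1 in the control list only. The share of this group with a control peak (11.8%) was near the 14.9% over all protein-coding genes.

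Breaks over the start were also found among the other forkhead genes. Of 9 whose start is in the sequence table and lay under a control peak, 4 had it under a 2KO peak, 2 (Foxa1 and Foxl2) between 2KO peaks, 2 (Foxf2 and Foxi3) beside the 2KO peaks and 1 (Foxc1) on a control peak with no 2KO call. Foxf2 and Foxa3 are named outside the rule for named genes, after their values were seen. With 2KO peaks up to 3 kb apart joined, the starts of Foxa1 and Foxl2 also counted as covered. Starts between 2KO peaks were thus found outside the 9 genes too.

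**Figure D5:**
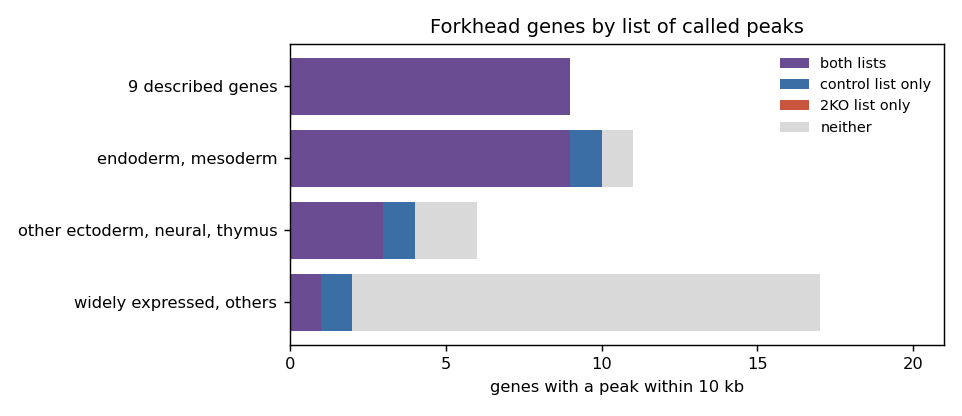
Number of forkhead genes with a peak within 10 kb of the gene body in both lists (purple), the control list only (blue), the 2KO list only (red, 0 genes) or neither (grey), by group. The 9 described genes are all in both lists, and 15 of the 17 widely expressed and other genes are in neither. In that last group 11.8% have a control peak, beside 14.9% over all protein-coding genes.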

How the data were processed

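H3K27me3 chromatin immunoprecipitation libraries of control and 2KO cells (2 labelled libraries each) are represented by 1 deposited list of peaks per genotype. Bowtie2 2.3.3.1, SAMtools 1.9 and build mm10 are named in the submitters' processing notes. Which program called the peaks, at what threshold, against which input and on pooled or single libraries was not given in the sources used here. Per the file headers the authors deposited chromosome, start and end position of each peak and no other value, so a longer call can follow from deeper sequencing as well as from more of the mark, and depth per library is unknown. The control input and the Eed cKO libraries were not analysed here.

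Peak starts were taken to count from 0, as in the BED format, and raised by 1 bp before use. Gene positions and promoter sequences came from RefSeq tables of GRCm38.p6, and where a gene had several starts the most upstream was used. Overlaps of at least 1 bp were found with pandas 2.3.3, numpy 2.4.6 and scipy 1.17.1 under Python 3.11.15; matplotlib 3.10.9 drew the figures. The overlap code was tested on simulated peaks. With 1 list per genotype nothing was tested between genotypes.

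The 9 genes and all lists were chosen with earlier results of these data known. Named were the 9 genes, genes whose bodies met their peaks, and up to 4 other forkhead genes per group and class with the longest called windows; 1 gene of the planned lists is not reported here. Alternatives covered the window, the peaks used, the overlap required and the joining of peaks.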

Additional observations from a re-analysis of the deposited data

How the results depend on the processing

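No paired analysis was possible because the deposited lists hold 1 set of peaks per genotype, so leaving out a replicate was not possible either. The 9 genes stayed marked in both lists with windows of 1, 5 and 20 kb and when 1 kb of the window had to be covered. The count was 8 with a window of 0 kb (Foxe1 lost in the 2KO list), with equal numbers of the widest peaks and with peaks of at least 5 kb (Foxj1 lost in both settings). With a window of 0 kb, 1550 protein-coding genes had a 2KO peak, and 21.8 kb of control and 17.6 kb of 2KO peaks lay on the 9 genes, since this window is shorter by construction. The ratio of 2KO to control length in the joined windows (0.893) ran from 0.809 to 0.921. The share of the control domains under 2KO peaks (83.4%) was 82.2% with gaps of up to 3 kb joined and 87.7% inside the windows only; at Foxd1 it was 62.8 and 83.0%. Equal numbers of peaks gave no share for Foxj1. With gaps in the 2KO list joined, a setting added after the data were seen, 1 of the 9 genes in place of 3 had an end between 2KO peaks, and 15 genes in place of 39 had a start between them. With the whole promoter window in place of the start, also added, 1 of the 9 genes in place of 2 lay between 2KO peaks, since 125 bases at Foxd1 were covered. Peak height and depth are unknown, so an interval with no call is not shown to lack the mark.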

Other observations

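Within 60 kb of the 9 genes, other control peaks were covered to differing extents. Some of these peaks also entered values above. The peak below Foxd2 was described with that domain, and the peak over Foxf2 entered the counts of other forkhead genes. Those next to Foxd1 and Foxd3 became part of the domains when gaps of up to 3 kb were joined. Next to the Foxd1 domain a control peak of 14.8 kb (chromosome 13, 98380833 to 98395636) was covered to 53.9% by a 2KO peak of 7.98 kb (98387450 to 98395428), and the right edges lay close together. Next to Foxd3 a control peak of 3.81 kb (chromosome 4, 99639931 to 99643744) was covered to 74.9%. Below Foxd2 a control peak of 4.56 kb (chromosome 4, 114888191 to 114892754) was covered to 100%. Near Foxj1 a control peak of 5.84 kb that met Galr2 (chromosome 11, 116279111 to 116284947) was also covered to 100%, by a 2KO peak of 7.65 kb (116277821 to 116285468). Beyond Foxe3 a control peak of 4.78 kb (chromosome 4, 114941638 to 114946417) was covered to 62.6%. Between Foxq1 and Foxf2, a control peak of 5.17 kb (chromosome 13, 31575681 to 31580847) had no 2KO call. The control peak of 28.2 kb over Foxf2 (31605965 to 31634174) was covered to 59.0% by a 2KO peak of 16.6 kb (31608695 to 31625337), which ended before the gene (31625816 to 31631406), whereas the 2KO peak at Foxq1 covered its whole gene. Near Foxd4, a control peak of 2.16 kb (chromosome 19, 24859881 to 24862040) that met Pgm5 had no 2KO call, and neither had one of 2.14 kb near Foxe1 (chromosome 4, 46311537 to 46313674).

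Long noncoding RNA genes reach into the domains of Foxd2, Foxe1 and Foxq1. Their bases were counted over each whole gene, inside and outside these domains. Gm33655 (114576917 to 114903946) lies mostly outside the domain of Foxd2 and Foxe3, which starts at 114896139. Over this whole gene 26630 bases lay under control and 27459 under 2KO peaks, so these counts do not describe the domain. Of Foxd2os (chromosome 4, 114909257 to 114921118), 11862 bases lay under control and 10351 under 2KO peaks. At Foxe1, the lncRNA gene Gm12446 (46298624 to 46343481) had 10700 and 7652 bases under the respective lists, and its upper end lay in the interval without a 2KO call that held Foxe1. Its control bases took in the whole of a separate control peak of 2138 bases (46311537 to 46313674) outside the Foxe1 domain, which had no 2KO call. At Foxq1, Gm11377 had 1707 bases under each list, and 1700018A04Rik (31565492 to 31582513) had 7413 under control and 1768 under 2KO peaks. The control bases of 1700018A04Rik took in the whole of a separate control peak of 5167 bases (31575681 to 31580847). That peak lay outside the Foxq1 domain and had no 2KO call.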
